A study of Homo sapiens with 9 samples.

Results

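The genes described here are 38 neuronal, synaptic and neuroendocrine genes of the 19918 gene symbols counted in VCaP cells after siRNA transfection. The list was set by gene name. Of its members, *NTRK2*, *OPRK1*, *LRRN3*, *RGS4* and *RELN* were chosen on a large difference between the siRNAs in these same libraries, so these 5 are described by their values and carry no test. The other 33 were chosen for the known roles of the genes, with earlier results of these data in view, and were tested where their counts allowed.

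VCaP is an established cell line derived from a vertebral metastasis of prostate cancer. Of the 3 groups, 2 had received an siRNA against exon 1 of the lncRNA (long non-coding RNA) *IGF1R-AS1*, which is read antisense to *IGF1R*, and the third had received a control siRNA. All groups shared reverse transfection with RNAiMAX, 100 pmol of siRNA and harvest after 72 h, and the samples used here hold no untransfected cells. The groups are named control, si025 and si033, as in the sample titles, and each held 3 libraries of total RNA from this same line.

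Granins such as chromogranin B and the secretogranins are stored in dense-core vesicles, where prohormone convertases cut peptide hormones from their precursors, and SNARE proteins and synaptotagmins drive the fusion of such vesicles with the plasma membrane. Pathologists use granins, synaptophysin, NCAM1 and INSM1 to recognise neuroendocrine cells, which are rare in the normal prostate. Prostate adenocarcinoma can take on a neuroendocrine character, and in non-neuronal cells many neuronal genes are held down by the repressor REST, which binds the RE1 element in DNA.

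Library totals ran from 11649811 to 28492259 counts, a ratio of 2.45 that was spread within each group. In every group the total rose with replicate number. All 11 prostate luminal markers passed the expression filter, and their summed level was 8718 to 8978 CPM in control, 10491 to 10812 with si025 and 7487 to 7842 with si033. CPM are counts scaled by the TMM method to a common library size (edgeR's cpm function). The targeted transcript itself was not analysed here, so the labels were not checked against it. The study calls the replicates of its knockdown RNA-seq biological, while the labels do not say how cultures were kept apart, and the *p* values measure only the spread between these libraries.

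The siRNAs that define the groups are shown because every comparison rests on them. They are printed 5′ to 3′ as the study lists them. The labels do not say which of the numbered oligonucleotides is si025 and which is si033.
siRNA negative control: uagcgacuaaacacaucaa
IGF1R-AS1-siRNA-1: agaaagcacugaagaccuauu
IGF1R-AS1-siRNA-2: ccguauugcucaguggaaauu

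Promoters were searched for the letters CAGCACC and GGACAG, the left and right parts of the RE1 element, on both strands. The RefSeq promoter table (GRCh38.p14), which runs from 250 bases before the start to 50 bases after it, held 31 of the 38 members. It lacked *OPRK1*, *CHGB*, *SCG2*, *NCAM1*, *SNAP25*, *STMN2* and *INSM1*. For *GRIA2*, *CNTN1*, *NRXN3* and *ROBO2* the start used lay 15021 to 404205 bases from that of the counted gene. CAGCACC stood in 5 of the 31 member promoters (16.1%) and in 7.54% of the 14626 promoters of all counted genes in the table. GGACAG stood in 8 of 31 (25.8%) and in 21.1% of all. The joined form CAGCACCNNGGACAG stood in 12 of these promoters (0.082%), and the only member among them was *SYN1*, at positions -231 to -217 from the start. Sites outside these windows, and the members that the table lacked, were not searched.

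The promoters shown are those of *SYN1*, with the joined form; *SCG3*, with CAGCACC at positions 10 to 16 and GGACAG at 25 to 30 past the start; *LRRN3*, with CAGCACC at positions -9 to -3 and a level that differed widely between the siRNAs; and *KCND3*, without either part and with the highest fold change among the tested members. They lie at chrX:47619808.0-47620107.0 (- strand), chr15:51681253.0-51681552.0 (+ strand), chr7:111090877.0-111091176.0 (+ strand) and chr1:111989619.0-111989918.0 (- strand) of GRCh38 and are printed on the strand of the gene. Capitals mark the matched letters, and a match is no evidence that REST binds there.
SYN1: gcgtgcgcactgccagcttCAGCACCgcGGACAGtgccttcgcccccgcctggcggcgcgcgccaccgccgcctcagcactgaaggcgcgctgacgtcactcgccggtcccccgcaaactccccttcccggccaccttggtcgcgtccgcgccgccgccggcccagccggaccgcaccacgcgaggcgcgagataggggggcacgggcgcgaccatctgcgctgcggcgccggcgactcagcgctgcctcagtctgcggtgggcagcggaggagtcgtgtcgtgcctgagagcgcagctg
SCG3: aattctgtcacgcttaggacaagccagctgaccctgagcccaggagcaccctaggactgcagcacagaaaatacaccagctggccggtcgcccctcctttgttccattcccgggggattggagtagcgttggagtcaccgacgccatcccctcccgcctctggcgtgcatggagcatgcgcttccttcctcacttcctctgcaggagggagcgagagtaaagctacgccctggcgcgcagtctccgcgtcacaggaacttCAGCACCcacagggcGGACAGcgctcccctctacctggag
LRRN3: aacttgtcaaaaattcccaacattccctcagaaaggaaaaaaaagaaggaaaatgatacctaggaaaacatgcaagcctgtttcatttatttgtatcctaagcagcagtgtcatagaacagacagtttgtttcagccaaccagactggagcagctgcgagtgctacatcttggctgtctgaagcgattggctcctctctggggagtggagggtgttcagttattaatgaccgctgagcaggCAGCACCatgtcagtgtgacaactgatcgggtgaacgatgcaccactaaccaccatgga
KCND3: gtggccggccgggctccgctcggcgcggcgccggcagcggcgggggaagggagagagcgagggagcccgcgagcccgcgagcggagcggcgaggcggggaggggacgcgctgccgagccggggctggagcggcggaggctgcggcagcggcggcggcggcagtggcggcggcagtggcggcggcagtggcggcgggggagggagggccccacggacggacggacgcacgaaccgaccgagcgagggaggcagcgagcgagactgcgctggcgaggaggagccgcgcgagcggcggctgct

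A gene was tested if it reached about 10 counts in a library of median size, or 0.709 CPM, in at least 3 libraries, and 12810 genes did. Of the members, 27 passed. The 11 that did not pass include common neuronal and neuroendocrine markers. *GAP43*, *DCX*, *CNTN1*, *ROBO2* and the neurogenic transcription factor gene *NEUROD1* had 0 counts in all 9 libraries, which allows a level of up to 0.105 to 0.258 CPM in a library, by counting error alone. Chromogranin A (*CHGA*) had 3 counts over all libraries, the prohormone convertase gene *PCSK2* 3, *SYT1* 2, *STMN2* 10, *SCG5* 21 and *SLIT2* 32. These genes were not detectable, or nearly so, at this depth in any group.

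Levels of the 27 members that passed spanned a wide range in control cells. Exon length here is that of all annotated exons of a gene together, not of the transcripts present in these cells. The order per kilobase therefore depends on the annotation. Per kilobase of exon, *STMN3*, a stathmin that regulates microtubules, stood highest at 37.97 CPM per kb. It was followed by *OPRK1* (20.8), *SCG3* (20.3) and *UCHL1* (19.2), whose control libraries overlapped from each to the next. *CHGB* (16.0), *SYT4* (14.6) and *SYP* (11.8) came next and were each separate from their neighbours. These 7 lay above the median of all tested genes, 7.28 CPM per kb, and the remaining 20 lay below it. *ENO2* (5.95) and *REST* (5.85) overlapped, as did *INSM1* (4.54) and *GRIA2* (4.46), and at the lower end *KCND3* (0.0888), *NTRK2* (0.0853) and *NLGN1* (0.0602) overlapped from each to the next.

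**Figure D1:**
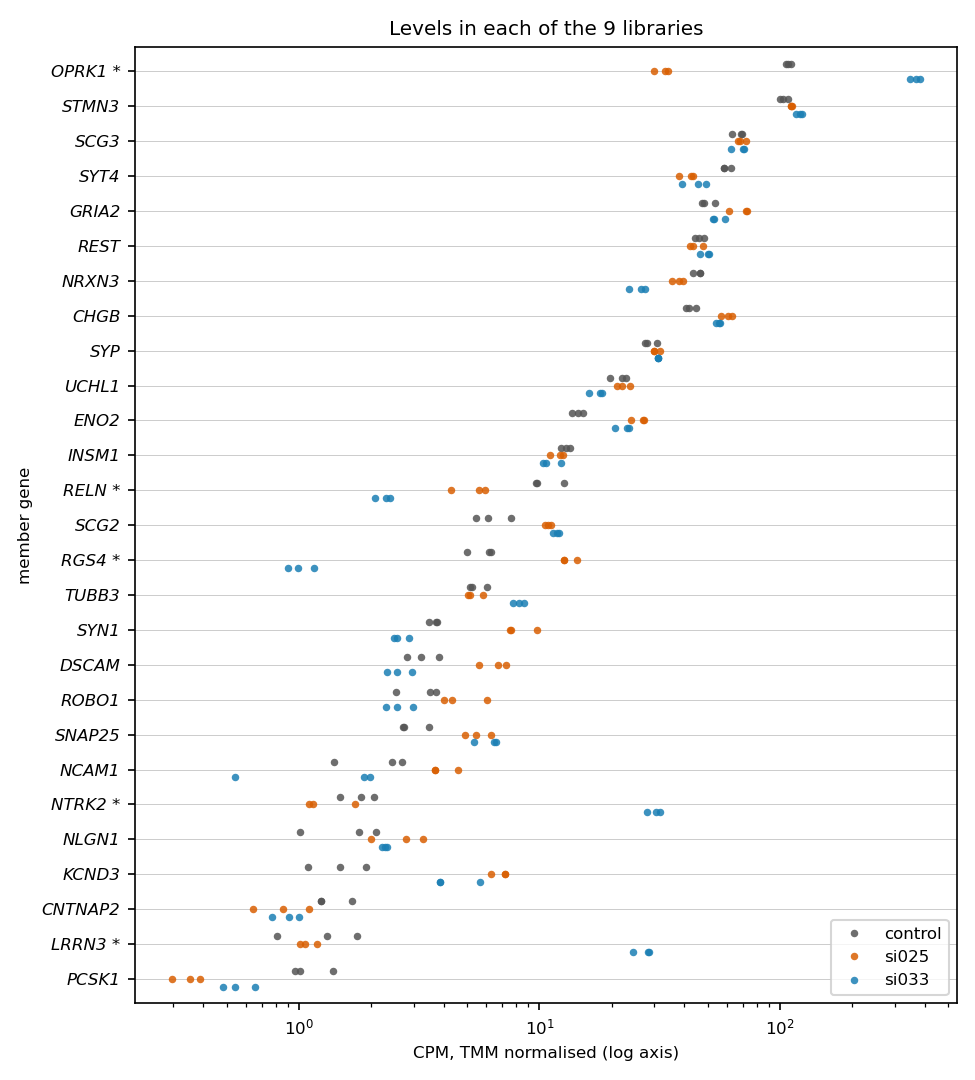
Level of the 27 members that passed the filter in each of the 9 libraries, in TMM-normalised CPM on a log axis, 1 point per library, coloured by group; an asterisk marks the 5 genes chosen on a difference between the siRNAs. The si033 points of *NTRK2* and *LRRN3* stand far to the right of the other groups, and those of *RGS4* and *RELN* to the left.

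The marker genes of other cell types were at low levels with some exceptions. Of 10 neuron markers 4 passed the filter (*MAP2*, *GAD1*, *NEFL* and *TUBB3*), with a summed level of 299 to 303 CPM in control, 224 to 248 with si025 and 299 to 320 with si033. *SLC17A6* and *GAD2* were at 0 in every library. Of 8 glia markers only *MBP* passed, and *GFAP*, *S100B*, *MOG*, *SOX10* and *OLIG2* were at 0. The glia sum was 64.9 to 70.7 CPM in control, 118 to 127 with si025 and 57.4 to 60.9 with si033. Of 8 small cell neuroendocrine markers 4 passed (*SYP*, *NCAM1*, *INSM1* and *DLL3*), *NEUROD1* was at 0, and the sum was 47.6 to 51.1, 51.6 to 55.5 and 50.1 to 53.1 CPM in the same order. Of 8 stroma and blood markers 3 passed, *CD3E* was at 0, and the sum was 4.06 to 5.22, 5.61 to 7.52 and 3.17 to 3.71 CPM. The luminal, neuron and glia sums moved between groups along with several members, and their part in the results was not tested.

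The 5 genes chosen on the difference between the siRNAs are described first. They encode a receptor tyrosine kinase for BDNF (*NTRK2*), the kappa opioid receptor (*OPRK1*), a leucine-rich repeat membrane protein (*LRRN3*), a regulator that speeds the shut-off of G protein signals (*RGS4*) and the secreted guidance protein reelin (*RELN*). In bulk RNA, a lower level can stem from fewer cells with the transcript or from less of it per cell, and these cannot be told apart.

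*NTRK2* (chr9:84668368-85027070 of hg38) stood at 1.48, 1.81 and 2.05 CPM in the control libraries, 1.71, 1.14 and 1.11 with si025 and 28.1, 30.5 and 31.8 with si033. The si033 libraries were all far above the rest, while si025 and control overlapped. Its log2 fold change was 4.03 for si033 and -0.55 for si025, each against control.

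*LRRN3* (chr7:111091006-111125454) showed a like pattern. It stood at 1.75, 1.305 and 0.811 CPM in control, 1.01, 1.19 and 1.06 with si025 and 28.2, 28.6 and 24.5 with si033. The si025 values lay within the control range and the si033 values were all high, with log2 fold changes of -0.09 and 4.52.

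*OPRK1* was abundant, at 106, 108 and 111 CPM in control, 29.98, 34.3 and 33.1 with si025 and 367, 348 and 381 with si033. All 3 groups were apart, with control in the middle, si025 low and si033 high. edgeR gave a log2 fold change of -1.73 for si025 and 1.75 for si033.

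*RGS4* (chr1:163068606-163076802) had the opposite order. It stood at 4.98, 6.16 and 6.296 CPM in control, 14.3, 12.7 and 12.6 with si025 and 0.989, 1.16 and 0.897 with si033. The si025 libraries were the highest and the si033 libraries the lowest, with no overlap, and the log2 fold changes were 1.15 and -2.58.

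*RELN* (chr7:103471784-103989516) was lower with either siRNA. It stood at 12.7, 9.71 and 9.77 CPM in control, 5.92, 4.27 and 5.62 with si025 and 2.31, 2.398 and 2.07 with si033. The groups did not overlap, and si033 was the lowest. The log2 fold changes were -1.02 and -2.25. Of these 5 genes, *NTRK2*, *OPRK1* and *LRRN3* were thus higher with si033 than with si025, and *RGS4* and *RELN* were lower, by the contrast that chose them.

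**Figure D2:**
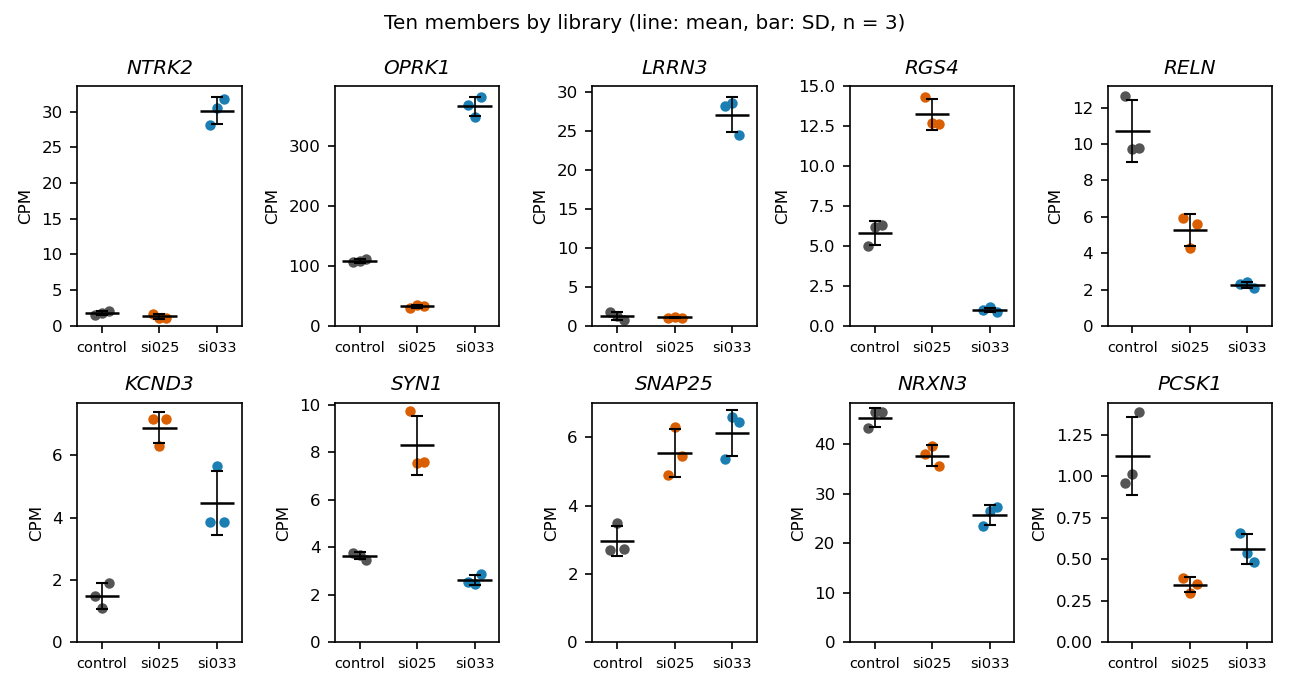
CPM of 10 members on linear axes from 0, by group, with 1 point per library, the mean as a line and the SD as a bar (n = 3). The top row holds the 5 genes chosen on a difference between the siRNAs; in the bottom row *KCND3* and *SNAP25* are higher than control with either siRNA, *SYN1* is high with si025 alone, and *NRXN3* and *PCSK1* are lower than control with either.

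Of the 33 members chosen on their roles, 22 passed the filter and were tested with edgeR's quasi-likelihood test. A gene is referred to as called when its *p* value, adjusted over all 12810 genes by the Benjamini-Hochberg method, was under 0.05. With si025, 14 of the 22 were called against control, 11 higher and 3 lower. The lower calls include *PCSK1*, which passed the filter through control alone. Over all tested genes 61.7% were called, 32.9% higher and 28.8% lower. The called share of the members, 63.6%, was close to this background. The median log2 fold change of the 22 was 0.29, beside 0.02 over all genes tested.

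With si033, 12 of the 22 were called, 7 higher and 5 lower, a share of 54.5%. *PCSK1* is again among the lower calls. Over all genes 54.8% were called, 26.9% higher and 27.8% lower. The median log2 fold change was 0.06 for the members and 0.00 over all genes. Directly between the siRNAs, 13 of the 22 were called (59.1%), 10 higher with si025 and 3 higher with si033. Over all genes 60.9% were called, 31.2% higher and 29.7% lower with si025. Both comparisons with control share the same 3 control libraries.

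The median absolute log2 fold change of the 22 was 0.53 with si025 and 0.42 with si033, and over all genes it was 0.26 and 0.22. Between the siRNAs it was 0.20 for the 22 and 0.24 over all genes. *PCSK1* reached the expression cutoff in control alone, so that its passing the filter depended on a difference between groups. *CNTNAP2* and *NCAM1* had all libraries at the cutoff in 2 of the 3 groups. Among the 19 members at the cutoff in every group, 12 were called with si025 (10 higher, 2 lower), 11 with si033 (7 higher, 4 lower) and 12 between the siRNAs (9 higher and 3 lower with si025).

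**Figure D3:**
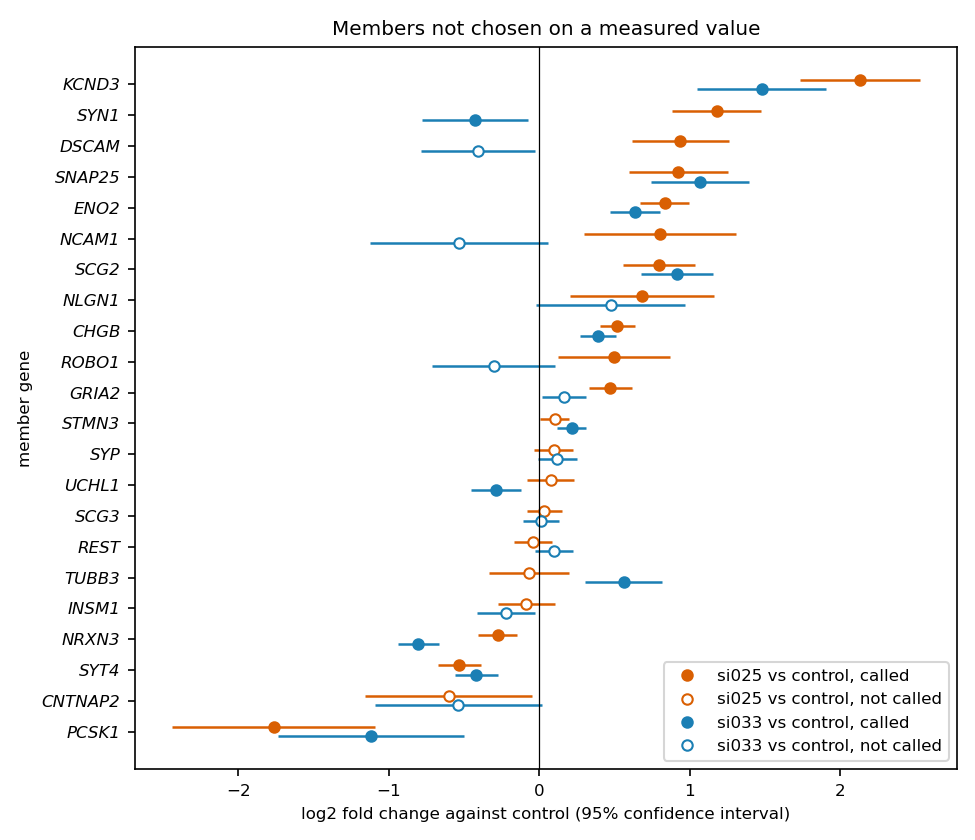
Log2 fold change against control of the 22 tested members with its 95% confidence interval, for si025 and si033; filled points are called at an adjusted *p* under 0.05 and open points are not. *KCND3* lies farthest to the right with either siRNA, *PCSK1*, drawn as fitted although it passed the filter through control alone, lies farthest to the left, and *SYN1* lies on opposite sides of 0.

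Among granins and the enzymes that process prohormones, *CHGB* and *SCG2* rose with either siRNA, *SCG3* did not pass the test, and the convertase gene *PCSK1* is given by its values alone. *CHGB* (chr20:5911328-5925361), which encodes the vesicle matrix protein chromogranin B, stood at 44.7, 42.04 and 40.9 CPM in control, 56.8, 63.4 and 60.97 with si025 and 56.3, 54.4 and 55.8 with si033. All libraries of either siRNA were above all control libraries. The fitted log2 fold change was 0.52 (SE 0.06, adjusted *p* = 3.82e-08) with si025 and 0.39 (SE 0.06, adjusted *p* = 4.38e-06) with si033. Between the siRNAs it was 0.13 (SE 0.05, adjusted *p* = 0.0489), and that call was lost in 15 of 16 alternative analyses, for example without si025 replicate 2 (adjusted *p* = 0.184).

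*SCG2* (chr2:223596940-223602499), the gene of secretogranin II, stood at 6.11, 7.61 and 5.45 CPM in control, 10.5, 11.2 and 10.8 with si025 and 11.4, 11.8 and 12.01 with si033. Control was the lowest group throughout. The change on the log2 scale was 0.80 (SE 0.12, adjusted *p* = 2.73e-06) and 0.91 (SE 0.12, adjusted *p* = 5.35e-07), and the difference between the siRNAs was -0.11 (95% confidence interval -0.33 to 0.10, adjusted *p* = 0.353). *SCG3*, a granin that sorts others into secretory granules, overlapped in all 3 groups, with 63.2, 69.01 and 69.7 CPM in control, 68.5, 72 and 67.03 with si025 and 62.6, 70.6 and 70.4 with si033. Its log2 fold change was 0.03 (95% confidence interval -0.08 to 0.15, adjusted *p* = 0.625) and 0.01 (95% confidence interval -0.11 to 0.13, adjusted *p* = 0.87).

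*PCSK1* (chr5:96390336-96433281), which encodes prohormone convertase 1, had the fewest counts of the tested members, with 11, 14 and 36 counts in the control libraries, 5, 6 and 8 with si025 and 8, 7 and 14 with si033. In CPM these were 0.9602, 1.01 and 1.39, then 0.389, 0.298 and 0.354, then 0.659, 0.542 and 0.483. The control libraries were the highest and the groups did not overlap. In log2 units the difference from control was -1.77 with si025 and -1.12 with si033. The gene passed the filter through control alone, so it had to differ from the other groups and no *p* is given for it.

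Of the synaptic vesicle and SNARE genes, *SNAP25* rose with either siRNA, *SYT4* fell with either, *SYN1* moved in opposite directions, and *SYP* did not pass the test. *SNAP25* (chr20:10218694-10307420), a SNARE protein of the plasma membrane, stood at 2.71, 3.48 and 2.74 CPM in control, 4.91, 6.302 and 5.44 with si025 and 5.36, 6.58 and 6.45 with si033. The siRNA groups overlapped with each other and lay above control. On the log2 scale the change was 0.92 (SE 0.16, adjusted *p* = 2.58e-05) and 1.07 (SE 0.16, adjusted *p* = 4.92e-06).

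*SYN1* (chrX:47571901-47619857), the gene of the vesicle-tethering protein synapsin I and the member with the joined RE1 letters printed above, stood at 3.75, 3.697 and 3.48 CPM in control, 9.73, 7.54 and 7.605 with si025 and 2.55, 2.48 and 2.86 with si033. The si025 libraries were the highest and the si033 libraries the lowest, with no overlap. Its log2 fold change was 1.18 (SE 0.14, adjusted *p* = 2.02e-07) with si025, -0.43 (SE 0.17, adjusted *p* = 0.0359) with si033 and 1.61 (SE 0.15, adjusted *p* = 2.75e-09) between the siRNAs. The fall with si033 was lost without control replicate 1 (adjusted *p* = 0.08), 2 (0.0795) or 3 (0.0616), without si033 replicate 1 (0.0779) or 2 (0.0819), with DESeq2 (0.0748) and with upper-quartile scaling (0.0513).

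*SYT4* (chr18:43267892-43277650), a synaptotagmin of secretory vesicles, stood at 58.5, 62.8 and 58.5 CPM in control, 43.6, 38.1 and 42.8 with si025 and 39.1, 49.1 and 45.7 with si033. Every control library was above every other library, and the siRNA groups overlapped. edgeR gave a log2 fold change of -0.53 (SE 0.07, adjusted *p* = 5.04e-07) and -0.42 (SE 0.07, adjusted *p* = 1.87e-05). Between the siRNAs it was -0.11 (adjusted *p* = 0.167), which became a call without si033 replicate 1 (adjusted *p* = 0.0144).

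*SYP*, which encodes the vesicle membrane protein synaptophysin, stood at 28.02, 30.95 and 27.4 CPM in control, 29.98, 31.7 and 30.02 with si025 and 31.1, 31.2 and 31.2 with si033. The fitted log2 fold change was 0.09 (95% confidence interval -0.04 to 0.22, adjusted *p* = 0.196) and 0.12 (95% confidence interval -0.01 to 0.25, adjusted *p* = 0.112). The latter was called without control replicate 2 (adjusted *p* = 0.0322).

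Other genes used as neuroendocrine markers did not move as 1 group. *ENO2* (chr12:6914450-6923696), the neuronal form of the glycolytic enzyme enolase, stood at 14.5, 13.6 and 15.1 CPM in control, 26.9, 27.1 and 23.9 with si025 and 23.6, 20.6 and 23.2 with si033. The libraries of either siRNA all lay above control. It rose by a log2 fold change of 0.83 (SE 0.08, adjusted *p* = 3.21e-09) with si025 and 0.63 (SE 0.08, adjusted *p* = 5.28e-07) with si033. The small difference between the siRNAs, 0.20 (adjusted *p* = 0.0214), was lost without si025 replicate 1 (adjusted *p* = 0.0649) or 2 (0.0946), without si033 replicate 2 (0.0993) and with DESeq2 (0.0717).

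*NCAM1* (chr11:112961247-113278436), a neural cell adhesion molecule, stood at 1.397, 2.68 and 2.43 CPM in control, 4.59, 3.67 and 3.67 with si025 and 1.98, 0.542 and 1.86 with si033. The si025 libraries were all above the others, and control and si033 overlapped, with the lowest value in si033 replicate 2. The change on the log2 scale was 0.80 (SE 0.24, adjusted *p* = 0.00643) with si025, -0.54 (adjusted *p* = 0.117) with si033 and 1.34 (adjusted *p* = 0.000101) between them. With no expression filter the si033 value was called (adjusted *p* = 0.0462).

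*UCHL1* (chr4:41256881-41268429), a ubiquitin hydrolase abundant in neurons, stood at 22.96, 21.96 and 19.7 CPM in control, 20.9, 23.9 and 22.1 with si025 and 18.2, 16.1 and 17.8 with si033. The si033 libraries lay below all others, and si025 and control overlapped. In log2 units the change was 0.08 (adjusted *p* = 0.397) with si025 and -0.29 (SE 0.08, adjusted *p* = 0.00368) with si033. Between the siRNAs it was 0.36 (adjusted *p* = 0.000299).

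The tested genes of the neuronal cytoskeleton, *STMN3* and *TUBB3*, both rose with si033. *STMN3* (chr20:63639705-63653610) stood at 100.3, 108 and 103 CPM in control, 111, 111 and 113 with si025 and 121, 124 and 117 with si033. The groups did not overlap, although the steps between them were small. On the log2 scale the change was 0.10 (adjusted *p* = 0.0576) with si025 and 0.22 (adjusted *p* = 0.000414) with si033. The si025 value was called without control replicate 2 (adjusted *p* = 0.046), with upper-quartile scaling (0.0218) and among genes of at least 5 CPM (0.0388). The difference between the siRNAs, -0.11 (adjusted *p* = 0.0374), was lost without si025 replicate 1 (adjusted *p* = 0.076), 2 (0.0634) or 3 (0.0658), without si033 replicate 2 (0.109) and with no filter (0.0623).

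*TUBB3* (chr16:89922009-89936097), a neuronal beta-tubulin, stood at 5.24, 5.15 and 6.03 CPM in control, 5.84, 5.06 and 5.13 with si025 and 8.65, 7.74 and 8.21 with si033. The si033 libraries were all above the others, which overlapped. Its log2 fold change was -0.07 (adjusted *p* = 0.66) with si025, 0.56 (SE 0.12, adjusted *p* = 0.000495) with si033 and -0.63 (adjusted *p* = 0.000107) between the siRNAs.

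Among synaptic adhesion genes, *NRXN3* fell with either siRNA, and *DSCAM* and *NLGN1* rose with si025. *NRXN3* (chr14:77979904-79868290), a presynaptic neurexin, stood at 43.3, 46.5 and 46.5 CPM in control, 38, 39.7 and 35.5 with si025 and 23.6, 26.5 and 27.4 with si033. The groups did not overlap, and si033 was the lowest. edgeR gave a log2 fold change of -0.27 (SE 0.06, adjusted *p* = 0.000572) with si025, -0.80 (SE 0.07, adjusted *p* = 5.07e-10) with si033 and 0.53 (SE 0.07, adjusted *p* = 3.51e-07) between them.

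*DSCAM* (chr21:40010999-40847113), a large immunoglobulin-type adhesion protein, stood at 3.23, 2.83 and 3.82 CPM in control, 7.24, 5.61 and 6.72 with si025 and 2.55, 2.94 and 2.31 with si033. The si025 libraries were above all others, and control and si033 overlapped. The fitted log2 fold change was 0.94 (SE 0.16, adjusted *p* = 1.72e-05) with si025, -0.41 (adjusted *p* = 0.0614) with si033 and 1.35 (adjusted *p* = 2.07e-07) between the siRNAs. The si033 value was called without control replicate 2 (adjusted *p* = 0.0412) or si033 replicate 2 (0.0429).

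*NLGN1* (chr3:173395899-174291287), a postsynaptic neuroligin, stood at 2.095, 1.01 and 1.78 CPM in control, 3.27, 1.98 and 2.79 with si025 and 2.22, 2.32 and 2.28 with si033. Control and si025 overlapped, while the si033 libraries lay above all control libraries. The change on the log2 scale was 0.68 (SE 0.23, adjusted *p* = 0.0137) with si025 and 0.47 (adjusted *p* = 0.0971) with si033. Between the siRNAs it was 0.21 (adjusted *p* = 0.425), so the rise was not shown to be particular to si025. The si025 call was lost without control replicate 2 (adjusted *p* = 0.0935), si025 replicate 1 (0.0665) or si025 replicate 3 (0.0547).

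*CNTNAP2*, a neurexin relative of axons, stood at 1.66, 1.23 and 1.24 CPM in control, 0.857, 0.645 and 1.11 with si025 and 0.906, 0.774 and 1.001 with si033. Every control library was above every other, but neither comparison was called, with log2 fold changes of -0.60 (95% confidence interval -1.16 to -0.05, adjusted *p* = 0.0552) and -0.54 (95% confidence interval -1.09 to 0.02, adjusted *p* = 0.0947). The si025 value was called without si025 replicate 3 (adjusted *p* = 0.0279) and with DESeq2 size factors (0.0498).

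The axon guidance receptor gene *ROBO1* (chr3:78597238-79767998) stood at 2.53, 3.697 and 3.52 CPM in control, 6.07, 4.32 and 4.02 with si025 and 2.31, 2.55 and 2.97 with si033. The si025 libraries were above the others, and control and si033 overlapped. In log2 units the change was 0.50 (SE 0.18, adjusted *p* = 0.0198) with si025, -0.30 (adjusted *p* = 0.202) with si033 and 0.80 (adjusted *p* = 0.000696) between the siRNAs. The si025 call against control was lost without control replicate 1 (adjusted *p* = 0.09) or si025 replicate 1 (0.127). Its ligand gene *SLIT2* and its relative *ROBO2* did not pass the filter.

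The ion channel and receptor genes held the highest fold change of the tested members. *KCND3* (chr1:111770662-111989577), which encodes the A-type potassium channel Kv4.3, had 17, 15 and 49 counts in the control libraries, 92, 127 and 162 with si025 and 47, 73 and 112 with si033. In CPM these were 1.48, 1.09 and 1.89, then 7.16, 6.302 and 7.16, then 3.87, 5.65 and 3.87. The groups did not overlap, with si025 high, si033 between and control low. The level was 4.37-fold that of control with si025 and 2.78-fold with si033. On the log2 scale this was 2.13 (SE 0.19, adjusted *p* = 1.87e-09) and 1.48 (SE 0.21, adjusted *p* = 2.45e-06), with 0.65 (SE 0.16, adjusted *p* = 0.00128) between the siRNAs.

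*GRIA2* (chr4:157205099-157370583), an AMPA-type glutamate receptor subunit, stood at 53.9, 47.2 and 48.3 CPM in control, 72.1, 61.6 and 72.9 with si025 and 52.8, 53 and 59.3 with si033. The si025 libraries were above all others, and control and si033 overlapped. On the log2 scale the change was 0.47 (SE 0.07, adjusted *p* = 2.71e-06) with si025, 0.16 (adjusted *p* = 0.0518) with si033 and 0.31 (adjusted *p* = 0.000392) between the siRNAs. The si033 value lay at the threshold and was called in 9 of 16 alternatives, among them those with the 6 libraries compared alone (adjusted *p* = 0.0272) and without control replicate 1 (0.0197), si025 replicate 2 (0.0218), si033 replicate 1 (0.0286) or si033 replicate 2 (0.0397).

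The transcription factor genes *REST* and *INSM1* were not called against control with either siRNA. *REST* (chr4:56907876-56935847) stood at 48.3, 44.5 and 45.97 CPM in control, 43.7, 42.4 and 47.9 with si025 and 46.6, 50.4 and 50.7 with si033, and the groups overlapped. Its log2 fold change was -0.04 (95% confidence interval -0.17 to 0.08, adjusted *p* = 0.549) and 0.10 (95% confidence interval -0.03 to 0.22, adjusted *p* = 0.173). Between the siRNAs it was -0.14 (adjusted *p* = 0.0429). That call was lost without si025 replicate 1 (adjusted *p* = 0.105) or 2 (0.178), without si033 replicate 2 (0.0894) or 3 (0.172), with DESeq2 (0.058) and with the 6 siRNA libraries alone (0.0503).

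*INSM1* (chr20:20368121-20370949), a zinc finger factor of neuroendocrine differentiation, stood at 12.9, 13.3 and 12.3 CPM in control, 11.1, 12.2 and 12.6 with si025 and 12.3, 10.6 and 10.4 with si033. The si033 libraries lay just under the control range. edgeR gave a log2 fold change of -0.09 (95% confidence interval -0.28 to 0.10, adjusted *p* = 0.428) and -0.22 (95% confidence interval -0.42 to -0.03, adjusted *p* = 0.0508). The latter was called without si033 replicate 1 (adjusted *p* = 0.0212), without si025 replicate 1 (0.0496) or 2 (0.0493) and with DESeq2 size factors (0.0465).

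Members also differed in gene length. The median genomic span was 39674 bp for the 27 members that passed and 31378 bp for all tested genes. The adhesion and guidance genes were the longest of those that passed, with spans of 2304964 bp for *CNTNAP2*, 1888387 bp for *NRXN3*, 1170761 bp for *ROBO1*, 895389 bp for *NLGN1* and 836115 bp for *DSCAM*. Their log2 fold changes with si025 ran from -0.60 for *CNTNAP2* to 0.94 for *DSCAM*. Of them *NRXN3* was called lower with si025, and *DSCAM*, *NLGN1* and *ROBO1* were called higher. With si033 the values were -0.54 for *CNTNAP2*, -0.80 for *NRXN3*, -0.30 for *ROBO1*, -0.41 for *DSCAM* and 0.47 for *NLGN1*. Of these only *NRXN3* was called. No member shared exon bases with another gene on its own strand.

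To place the members among their pathways, 310 further genes in 13 lists were counted, and 210 of them passed the filter. With si025, 152 of the 210 were called, 104 higher and 48 lower, with a median log2 fold change of 0.22. With si033, 133 were called, 84 higher and 49 lower, with a median of 0.08. Over all genes 61.7% were called with si025 (32.9% higher, 28.8% lower) and 54.8% with si033 (26.9% higher, 27.8% lower). These shares are the background for every list count that follows. The lists were chosen with earlier results of these data known, so their counts are no independent test. The 210 include genes with all libraries at the cutoff in 1 group alone, among them *CNTNAP1*, *MAP1A*, *FOXA2* and *OPRL1*. For such genes, passing the filter could depend on a difference between groups. The counts were not repeated without them. In what follows CPM are mean ± SD over 3 libraries, and a pair of values after a gene is its log2 fold change with si025 and then with si033, each against control.

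The granin and prohormone list held 17 further genes, all tested. With si025 13 were called, 11 higher and 2 lower. In the si033 comparison 12 were, 8 higher and 4 lower. *CPE*, the carboxypeptidase that trims cleaved prohormones, stood at 20.3 ± 0.439 CPM in control, 35.9 ± 2.096 with si025 and 39.2 ± 3.38 with si033, with log2 fold changes of 0.83 (adjusted *p* = 6.24e-10) and 0.97 (adjusted *p* = 6.99e-11). *PAM*, the peptide-amidating enzyme, stood at 3.898 ± 0.631 CPM in control, 7.63 ± 0.9498 with si025 and 3.47 ± 0.4899 with si033, with 1.01 (adjusted *p* = 3.55e-06) and -0.13 (adjusted *p* = 0.526). The gene *CPM*, which encodes carboxypeptidase M and shares its symbol with the unit, stood at 2.44 ± 0.165 CPM in control, 4.52 ± 0.213 with si025 and 4.11 ± 1.03 with si033, with 0.89 (adjusted *p* = 0.000141) and 0.77 (adjusted *p* = 0.000943). *PTPRN2*, a dense-core vesicle protein, stood at 39.7 ± 0.512 CPM in control, 77.8 ± 0.799 with si025 and 31.8 ± 1.52 with si033, with 0.97 (adjusted *p* = 2.84e-13) and -0.31 (adjusted *p* = 8.22e-05). The trimming enzyme *CPE* thus rose with either siRNA, while *PTPRN2* went in opposite directions.

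In the synaptic vesicle and SNARE list 36 of 44 genes were tested. With si025 34 were called, 26 higher and 8 lower, with a median log2 fold change of 0.42. With si033 23 were called, 15 higher and 8 lower, with a median of 0.19. The synaptotagmin gene *SYT13* stood at 1.001 ± 0.214 CPM in control, 4.05 ± 0.504 with si025 and 1.95 ± 0.538 with si033, and its log2 fold change was 2.05 (adjusted *p* = 4.58e-08) and 1.02 (adjusted *p* = 0.0019). *SV2B*, a vesicle glycoprotein whose libraries did not all reach the cutoff with si033, stood at 0.888 ± 0.0482 CPM in control, 2.32 ± 0.441 with si025 and 0.6396 ± 0.22 with si033, with 1.41 (adjusted *p* = 2.7e-05) and -0.44 (adjusted *p* = 0.248). *RAB3C*, a GTPase of vesicle exocytosis, showed 0.83 (adjusted *p* = 0.000435) and 1.59 (adjusted *p* = 4.42e-08), and *SYT17* showed 1.203 (adjusted *p* = 1.67e-10) and 1.11 (adjusted *p* = 1.28e-09).

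In the axon guidance list 33 of 42 genes were tested. With si025 28 were called, 18 higher and 10 lower. The si033 libraries gave 23 calls, 16 higher and 7 lower. The ephrin receptor gene *EPHB2* stood at 12.7 ± 0.276 CPM in control, 29.8 ± 0.157 with si025 and 16.1 ± 1.296 with si033, with log2 fold changes of 1.23 (adjusted *p* = 1.3e-12) and 0.31 (adjusted *p* = 0.00209). For the semaphorin receptor gene *PLXNA2* they were 1.19 (adjusted *p* = 6.55e-08) and -0.29 (adjusted *p* = 0.13), and for *PLXNC1* -0.65 (adjusted *p* = 0.00466) and -1.01 (adjusted *p* = 0.000166). *SRGAP1*, which acts downstream of ROBO receptors, showed 0.53 (adjusted *p* = 0.00931) and 0.95 (adjusted *p* = 3.53e-05).

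Of the synaptic and neural adhesion list 22 of 35 genes were tested. With si025 14 were called, 9 higher and 5 lower. In the si033 comparison 9 were, 5 higher and 4 lower. *CNTNAP1*, the axonal relative of *CNTNAP2*, stood at 0.677 ± 0.285 CPM in control, 3.29 ± 0.178 with si025 and 0.848 ± 0.275 with si033, with log2 fold changes of 2.19 and 0.27. Only with si025 did all its libraries reach the cutoff, so no *p* is given for it, although the counts of the list include it. *L1CAM* stood at 3.21 ± 0.753 CPM in control, 11.7 ± 0.95 with si025 and 3.18 ± 0.3004 with si033, with 1.83 (adjusted *p* = 1.25e-10) and -0.05 (adjusted *p* = 0.816). Its relative *NRCAM* went the other way, at 136 ± 2.596 CPM in control, 103 ± 9.95 with si025 and 244 ± 2.37 with si033, with -0.40 (adjusted *p* = 1.2e-06) and 0.84 (adjusted *p* = 5.64e-12). *SLITRK6* fell, with -0.85 (adjusted *p* = 4.49e-07) and -1.43 (adjusted *p* = 5.12e-10).

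Of the cytoskeleton list 24 of 26 genes were tested. With si025 19 were called, 15 higher and 4 lower. The si033 libraries gave 17 calls, 12 higher and 5 lower. *NEFH*, the heavy neurofilament chain, stood at 5.22 ± 0.0707 CPM in control, 13.1 ± 0.777 with si025 and 5.45 ± 0.386 with si033, with log2 fold changes of 1.32 (adjusted *p* = 3.69e-10) and 0.04 (adjusted *p* = 0.85). The calcium sensor gene *NCALD* showed 1.29 (adjusted *p* = 1.72e-14) and -0.05 (adjusted *p* = 0.545). *DCLK1*, a relative of the undetected *DCX*, showed 0.83 (adjusted *p* = 9.93e-09) and 1.07 (adjusted *p* = 1.54e-10), and *MAP1A*, a microtubule-associated protein gene, stood at 0.862 ± 0.239 CPM in control, 0.615 ± 0.216 with si025 and 1.86 ± 0.202 with si033, with -0.60 and 1.04. *MAP1A* had all libraries at the cutoff only with si033 and is given without a *p*, though it is in the counts.

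The lists of partners of the 5 genes chosen on a difference between the siRNAs were shorter. Of 21 neurotrophin signalling genes 11 were tested. With si025 5 were called, 2 higher and 3 lower. In the si033 comparison 6 were, 3 higher and 3 lower. *SHC2*, an adaptor of neurotrophin receptors, stood at 15.4 ± 0.536 CPM in control, 42.8 ± 0.474 with si025 and 12.8 ± 1.73 with si033, with log2 fold changes of 1.47 (adjusted *p* = 5.34e-14) and -0.25 (adjusted *p* = 0.0161). *GRB2*, a general adaptor of receptor kinases, stood at 111 ± 1.87 CPM in control, 57.4 ± 2.16 with si025 and 120.1 ± 3.77 with si033, with -0.95 (adjusted *p* = 1.43e-13) and 0.12 (adjusted *p* = 0.0399). For *PLCG1*, a phospholipase that such receptors activate, they were -0.07 (adjusted *p* = 0.295) and -0.23 (adjusted *p* = 0.00131). The receptor genes *NTRK3* and *NGFR* and the ligand gene *BDNF* did not pass the filter.

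Of 20 other RGS genes 11 were tested. With si025 6 were called, 4 higher and 2 lower. The si033 libraries gave 8 calls, 2 higher and 6 lower, with median log2 fold changes of 0.09 and -0.64. *RGS5* stood at 17.4 ± 0.396 CPM in control, 16.8 ± 0.424 with si025 and 5.68 ± 0.175 with si033, with -0.05 (adjusted *p* = 0.559) and -1.61 (adjusted *p* = 5.9e-13). *RGS17* showed 0.36 (adjusted *p* = 0.0199) and -1.39 (adjusted *p* = 1.15e-07), *RGS2* showed -0.92 (adjusted *p* = 2.77e-06) and -0.66 (adjusted *p* = 0.00019), and *RGS11* showed 0.59 (adjusted *p* = 1.12e-06) and 0.24 (adjusted *p* = 0.0185).

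Of 9 reelin pathway genes 8 were tested. With si025 6 were called, 3 higher and 3 lower. In the si033 comparison 5 were, 4 higher and 1 lower. *DAB2*, an endocytic adaptor, stood at 2.05 ± 0.0474 CPM in control, 5.36 ± 1.14 with si025 and 5.14 ± 0.443 with si033, with log2 fold changes of 1.35 (adjusted *p* = 6.37e-07) and 1.31 (adjusted *p* = 1.61e-06). *RAPGEF1*, an exchange factor for a small GTPase, stood at 63.4 ± 2.73 CPM in control, 90.7 ± 3.35 with si025 and 151 ± 5.06 with si033, with 0.52 (adjusted *p* = 8.65e-09) and 1.25 (adjusted *p* = 2.1e-15). Of the LRRN family only *LRRN1* was tested, at 7.75 ± 1.36 CPM in control, 21.8 ± 1.32 with si025 and 22.5 ± 2.36 with si033, with 1.43 (adjusted *p* = 4.39e-11) and 1.497 (adjusted *p* = 3e-11). *LRRN1* thus rose with either siRNA. Of 7 opioid receptor and peptide genes only *OPRL1* passed the filter, with all libraries at the cutoff only for si025, and its level was 0.684 ± 0.128 CPM in control, 1.08 ± 0.2904 with si025 and 0.595 ± 0.185 with si033.

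Of 22 cofactors and regulators of REST 21 were tested. With si025 13 were called, 7 higher and 6 lower. The si033 libraries gave 15 calls, 8 higher and 7 lower, with median log2 fold changes of 0.01 and 0.03. *CTDSPL*, a phosphatase that acts with REST, stood at 492 ± 11.7 CPM in control, 581 ± 15.6 with si025 and 256 ± 7.85 with si033, with 0.24 (adjusted *p* = 2.26e-05) and -0.94 (adjusted *p* = 1.11e-14). Its relative *CTDSP1* showed 0.51 (adjusted *p* = 6.84e-09) and 0.53 (adjusted *p* = 5.78e-09). *SRRM4*, a splicing factor that can redirect *REST* to a truncated form, showed 0.70 (adjusted *p* = 3.62e-05) and 0.13 (adjusted *p* = 0.409), and the corepressor gene *RCOR2* showed 0.17 (adjusted *p* = 0.327) and 0.85 (adjusted *p* = 1.7e-05).

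**Figure D4:**
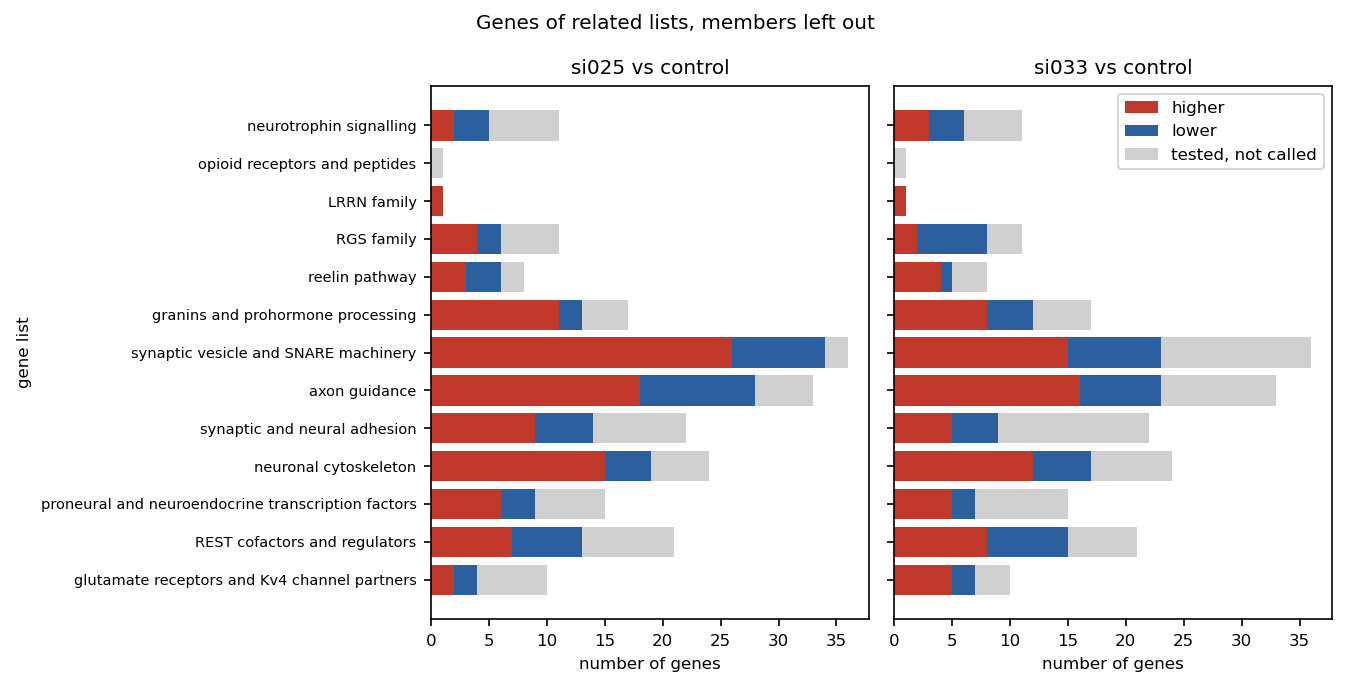
Number of tested genes in each of the 13 related lists, members left out, called higher (red), called lower (blue) or not called (grey) against control, for si025 (left) and si033 (right). In the synaptic vesicle and SNARE list 34 of 36 genes were called with si025 and 23 of 36 with si033. Over all tested genes 61.7% and 54.8% were called.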

How the data were processed

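Total RNA (1.3 µg per sample) from 9 VCaP samples, 3 per group by sample title, had entered a stranded library preparation. The authors aligned reads to hg38 with HISAT2 2.1.0 and counted them with featureCounts 1.5.2. The deposited values are raw counts per gene symbol, with no normalization; per the file headers, read pairs were counted over RefSeq exons on the sense strand, while the methods of the study name GENCODE.

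From these counts, edgeR 4.0.16 (R 4.3.3) was run on all 9 libraries in 1 fit with 3 group means, TMM scaling, the default expression filter and the quasi-likelihood test. *P* values were adjusted over 12810 genes. The SE is the log2 fold change divided by the square root of its F value. The biological coefficient of variation was 4.13%. Alternatives were DESeq2 1.42.0 and its size factors, upper-quartile scaling, no filter, a mean of at least 5 CPM, a replicate block, only the 6 libraries compared, and each library left out.

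The members and gene lists were chosen with earlier results of these data known. Of each of 13 lists, up to 2 called genes per comparison with control were named, those with the highest absolute fold change at a mean of at least 1 CPM. *BDNF*, *NGFR*, *NTRK3*, *OPRL1* and *FOXA2* were named outside this rule, after their values were seen. Replicates differed by more than counting noise (chi-square per degree of freedom 1.69 to 5.09), so no libraries were merged.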

Additional observations from a re-analysis of the deposited data

Results flagged for a closer look

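Each of the following members was flagged because its effect differed between the siRNAs by a direct test, the edgeR contrast of si025 against si033 (log2, adjusted *p* under 0.05). The differences where si025 was higher were 1.61 for *SYN1*, 1.35 for *DSCAM*, 1.34 for *NCAM1*, 0.80 for *ROBO1*, 0.65 for *KCND3*, 0.53 for *NRXN3*, 0.36 for *UCHL1*, 0.31 for *GRIA2*, 0.20 for *ENO2* and 0.13 for *CHGB*. The differences where si033 was higher were -0.63 for *TUBB3*, -0.14 for *REST* and -0.11 for *STMN3*. Of 16 alternative analyses, the call was lost in 15 for *CHGB*, 6 for *REST*, 5 for *STMN3* and 4 for *ENO2*. The calls of the other flagged members held in every alternative that gave a value. Over all tested genes 60.9% passed the same test.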

How the results depend on the processing

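Of 66 results on single members, 44 kept their call and direction in every alternative that gave a value. Of 1028 values under the 16 alternatives, 43 lost a call, 23 gained one and 10 changed sign. Requiring a mean of at least 5 CPM left 13 of the 22 members to test, and the number called was then 7 for si025 against control and 7 for si025 against si033, because fewer members were tested. Leaving out each library in turn gave 12 to 14 called members for si025, 10 to 14 for si033 and 9 to 13 between the siRNAs, and 133 to 153 and 115 to 134 called genes of the related lists.

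The sign changes all came from leaving out 1 library, in results that were called in neither case. The values without 1 library ran, for *SCG3*, from -0.0048 to 0.0593 for si025 against control, from -0.0189 to 0.0681 for si033 against control and from -0.0377 to 0.0522 between the siRNAs. For *CNTNAP2* between the siRNAs they ran from -0.3271 to 0.1344, and for si025 against control from -0.1254 to 0.0243 for *TUBB3* and from -0.0058 to 0.1172 for *UCHL1*. The cause was not tested.

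Same-numbered libraries deviated from their group means with correlations of -0.02 to 0.07. Library totals rose with replicate number in every group. These correlations, from 3 libraries per group, cannot show that same-numbered libraries were handled apart. With the replicate block, 14, 13 and 12 members were called in the 3 comparisons, and 152 and 134 genes of the related lists. The block changed the call of *GRIA2* for si033 against control, which became a call (log2 0.1631, adjusted *p* = 0.0306), and of *CHGB* between the siRNAs, which was lost (0.1256, adjusted *p* = 0.0566). Depth limits the members with few counts, among them *PCSK1*, *NLGN1*, *CNTNAP2* and *NCAM1*.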

Other observations

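A pair of related lists was not described above. Of 35 further proneural and neuroendocrine transcription factor genes 15 were tested. With si025 9 were called, 6 higher and 3 lower. In the si033 comparison 7 were, 5 higher and 2 lower. The counts include *FOXA2*, counted lower with si025 and higher with si033, whose libraries all reached the cutoff only with si033. It stood at 0.556 ± 0.235 CPM in control, 0.214 ± 0.119 with si025 and 1.84 ± 0.162 with si033, and is given without a *p*. *HES1*, a Notch target that represses proneural genes, stood at 4.99 ± 0.818 CPM in control, 11.9 ± 1.39 with si025 and 2.39 ± 0.4102 with si033 (SD, n = 3), with log2 fold changes of 1.26 (adjusted *p* = 3.04e-08) and -1.002 (adjusted *p* = 3.4e-05). *INSM2*, a relative of *INSM1*, showed 0.51 (adjusted *p* = 0.0297) and 0.76 (adjusted *p* = 0.00232). The proneural gene *ATOH1* stood at 1.88 ± 0.311 CPM in control, 1.23 ± 0.143 with si025 and 2.16 ± 0.284 with si033, with -0.69 (adjusted *p* = 0.0111) and 0.19 (adjusted *p* = 0.446).

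Of 28 glutamate receptor and Kv4 partner genes 10 were tested. With si025 4 were called, 2 higher and 2 lower. The si033 libraries gave 7 calls, 5 higher and 2 lower, with median log2 fold changes of 0.03 and 0.70. *CACNG4*, an auxiliary subunit of AMPA receptors, stood at 4.49 ± 0.906 CPM in control, 12.4 ± 0.345 with si025 and 7.29 ± 0.497 with si033, with 1.51 (adjusted *p* = 6.36e-10) and 0.77 (adjusted *p* = 6.17e-05). *CNIH2*, another AMPA receptor partner, showed -0.14 (adjusted *p* = 0.581) and 0.95 (adjusted *p* = 0.000146). *GRIN3A*, an NMDA receptor subunit, fell with either siRNA, from 24.1 ± 2.23 CPM in control to 15.7 ± 1.81 with si025 and 10.6 ± 0.847 with si033, with -0.61 (adjusted *p* = 2.52e-06) and -1.14 (adjusted *p* = 5.63e-10).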
